A study of Mus musculus with 2 samples.

Results

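Processed pseudogenes are DNA copies of messenger RNAs. In the mouse cortex tables, 10244 of 141767 annotated transcripts carried this class in the annotation field of their name, 9943 as processed pseudogene and 301 as transcribed processed pseudogene. No measured value entered the choice. Each member was a separate gene. The 1 sample group, cortex, was poly(A)-selected RNA of left cerebral cortex. The mice were adults of the strain B6NCrl (a substrain of C57BL/6) at an age of 6 months, with no mutation or treatment in the labels. Libraries started from 20 ng of RNA, were fragmented by Nextera tagmentation (a transposase cuts and tags the cDNA) and had a size range labelled below 200. The group held 2 libraries, labelled biological replicates 1 and 2, whose biosample records differ and whose donor entry is shared, so the spread between them may be technical. One label field called the tissue male and another gave the sex as not collected.

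Such a copy forms when the reverse transcriptase of a LINE-1 element turns a spliced, polyadenylated messenger RNA into DNA that is pasted elsewhere in the genome. The copy therefore lacks its parent's introns and promoter, and most copies gather mutations that break the reading frame. Genes that are strongly expressed in the germ line, those for ribosomal proteins and glycolytic enzymes among them, have left many copies, and a few copies have gained transcription of their own. A short read from a young copy and one from the parent can be the same letters, so the reads alone may not show which of them was transcribed. In bulk tissue a lower level per cell and fewer expressing cells also cannot be told apart.

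Each library was quantified 2 times by the authors. The first quantification gave expected counts and TPM (a level per transcript length, scaled to one sum in every library) from alignments to the transcriptome, and the second gave estimated counts and TPM from the read files. Annotated transcripts received 51876180 and 26771051 fragments in replicates 1 and 2 of the first quantification and 76100930 and 46367810 in the second. Members received 168123 and 84498 fragments in the first and 322492 and 252438 in the second. All 9 marker genes of neurons, oligodendrocytes and astrocytes used to check the cortex label were present, between 33.7 and 2730.5 TPM over both libraries and quantifications.

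How far a copy has drifted from its parent decides which reads can tell them apart, so the sequences that carry the findings are given first, from the GENCODE M21 transcripts on mm10. Rpl38-ps2 (ENSMUSG00000080921.4, chr6:140746960-140747172, minus strand) is 213 bases long. It matches the coding sequence of Rpl38, a protein of the large ribosomal subunit, letter for letter from start to stop codon (capitals). It is shown whole, because the quantifications gave it different values.
Rpl38-ps2: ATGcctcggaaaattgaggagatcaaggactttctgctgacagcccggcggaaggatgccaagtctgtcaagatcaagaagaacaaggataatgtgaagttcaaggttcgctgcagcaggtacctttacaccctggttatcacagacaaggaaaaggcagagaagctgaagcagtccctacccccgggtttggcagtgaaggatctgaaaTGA

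Copies with 1 difference from the parent in the stretch compared are shown with that base in capitals. Mpc1-ps (stretch at chr12:110858805-110858894, minus strand) is set beside Mpc1, a subunit of the mitochondrial pyruvate carrier, over bases 1 to 90 of the coding sequence. Rpl37rt (chr5:115103231-115103320, minus strand) is set beside Rpl37, a large subunit protein, over coding bases 202 to 291.
Mpc1-ps: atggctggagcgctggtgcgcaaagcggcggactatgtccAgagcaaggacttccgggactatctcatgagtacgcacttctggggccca
Mpc1: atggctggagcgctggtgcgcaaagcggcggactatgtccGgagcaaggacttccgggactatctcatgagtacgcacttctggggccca
Rpl37rt: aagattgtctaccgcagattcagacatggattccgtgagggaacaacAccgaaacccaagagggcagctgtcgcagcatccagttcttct
Rpl37: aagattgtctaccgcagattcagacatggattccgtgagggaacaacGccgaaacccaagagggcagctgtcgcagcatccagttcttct

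More diverged copies follow, again with differing bases in capitals. Gm8618 (chr1:134109527-134109616, plus strand) differs from Rps23, a small subunit protein, at 4 of the 90 bases shown (coding bases 160 to 249). Aprt-ps (chr8:71224260-71224349, plus strand) differs from Aprt, adenine phosphoribosyltransferase of purine salvage, at 8 of 90 (coding bases 328 to 417).
Gm8618: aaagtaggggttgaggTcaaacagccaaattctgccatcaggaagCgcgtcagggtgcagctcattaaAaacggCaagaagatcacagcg
Rps23: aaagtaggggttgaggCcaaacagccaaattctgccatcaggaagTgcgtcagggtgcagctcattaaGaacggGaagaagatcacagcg
Aprt-ps: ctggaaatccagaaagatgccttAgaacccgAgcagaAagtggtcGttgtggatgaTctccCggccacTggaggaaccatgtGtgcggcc
Aprt: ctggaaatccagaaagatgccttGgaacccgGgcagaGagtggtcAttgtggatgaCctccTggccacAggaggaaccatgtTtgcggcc

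Gm19220 is shown because it was listed at 0 in both libraries by one quantification and above 100 TPM by the other. In its stretch at chr12:40893693-40893782, plus strand, the capitals mark the only bases that belong to 31-base words found in another gene. They hold a run of 33 C.
Gm19220: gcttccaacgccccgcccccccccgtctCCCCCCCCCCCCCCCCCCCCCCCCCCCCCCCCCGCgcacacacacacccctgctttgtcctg

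Most members had the single exon of a spliced copy, 9258 of the 10244 (90.4%), against 4.78% of protein coding transcripts, and the median length was 531 bases. A closest protein coding gene, by alignment over at least 50% of the member, was found for 8865 members (86.5%). These matches named 2576 genes, with a median identity of 90.3%. The symbol named the parent for few members: 586 fell into 261 families with a protein coding parent in the tables, and for 544 of these the closest gene was the parent named. Another 8822 members (86.1%) carried only a Gm number. Most members, 7230, lay outside other genes, while 1559 lay in an intron of a gene on the opposite strand, 1036 in an intron on the same strand, 260 on an exon of the opposite strand and 159 on an exon of the same strand.

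Unique sequence was measured as the percent of a member's 31-base words that no other annotated gene holds on either strand. The median member had 84.3% unique words (quartiles 45.2% and 98.9%), protein coding transcripts 99.8% and unprocessed pseudogenes, which arise by DNA duplication, 37.1%. No unique word at all was left in 498 members (4.86%), against 1.24% of coding transcripts. In 134 members (1.31%) the whole sequence lay inside a protein coding transcript without a difference, as shown for Rpl38-ps2. Of these 134 exact copies, 26 were closest to a ribosomal protein gene, a share similar to the 2170 of all 10244 members.

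Few members were detected, and different ones by each quantification. With detection set at 1 TPM or more in each of the 2 libraries, the first quantification found 345 members (3.37%) and the second 380 (3.71%). The sets shared 161 members, 46.7% of the first and 42.4% of the second. Among protein coding transcripts the shared set was 90.9% of the first and 93.6% of the second. Among unprocessed pseudogenes, with 28 and 32 detected, it was 60.7% and 53.1%. A value of 0 in all 4 tables was given to 5400 members, and 1036 were above 0 in all 4. Of the 301 members annotated as transcribed, 18 were detected by the first quantification, 14 by the second and 11 by both.

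Members held 1.69% and 1.37% of the summed TPM of replicates 1 and 2 in the first quantification (mean 1.53% ± 0.226, SD, n = 2). In the second they held 1.29% and 1.78% (1.54% ± 0.347, SD, n = 2). The order of the libraries was thus opposite in the quantifications. As a share of fragments the members took less, 0.324% and 0.316% in the first and 0.424% and 0.544% in the second. The TPM of a short transcript is high for its fragments: Gm14303 had an effective length (the positions a fragment can start from) of 35.4 bases in replicate 1 of the first quantification, so its 3018 expected counts gave 2122 TPM.

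A small number of members held most of this TPM. The 10 highest members held 58.4% and 50.7% of all members' TPM in the first quantification and 59.3% and 51.6% in the second. It took 80 and 119 members in the first and 103 and 132 in the second to reach 90%.

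Most of the TPM was given to copies with no 31-base word of their own. Members with no unique word were 4.86% of all and held 78.0% and 71.2% of the members' TPM in the first quantification and 68.4% and 65.8% in the second. Of the members' fragments they held less, 65.3% and 56.4% in the first and 64.4% and 60.5% in the second. The 4435 members with at least 90% unique words, 43.3% of all, held 0.408% and 0.538% of the TPM in the first and 2.40% and 2.04% in the second. The second values include 1 member, Gm19220, with 159 and 188 TPM beside 12919 and 17832 TPM of all members. The first quantification listed Gm19220 at 0. The 134 exact copies alone held 76.3%, 69.1%, 62.8% and 58.5% of the members' TPM in the same order. Of the members' fragments these copies held 62.6%, 53.9%, 59.1% and 53.5%. Detection followed the same order by the first quantification: 90 of 498 members with no unique word passed (18.1%), 78 of 473 with up to 10% (16.5%), 139 of 1844 with over 10% up to 50% (7.54%), 31 of 2992 with over 50% but under 90% (1.04%) and 7 of 4435 with at least 90% (0.158%). By the second, these counts were 57 (11.4%), 51 (10.8%), 164 (8.89%), 93 (3.11%) and 15 (0.338%), shares that fell in the same order. The deposited SD of the counts differed between these ranges as well. The SD that the authors deposited with each expected count had a median of 16.2% of the count for the 103 members with no unique word and a mean of at least 1 TPM, and of 12.5%, 9.71%, 1.33% and 0 in the ranges above (91, 183, 43 and 7 members, replicate 1). The TPM intervals deposited for the same members in replicate 1 showed no such steady fall. Their upper bound over their lower bound had a median of 2.27, 2.03, 2.35, 2.62 and 1.90 in the same ranges. A median SD of 0 is thus not a lack of error in the level. The part that sharing of reads with parents has in these levels was not tested.

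**Figure D1:**
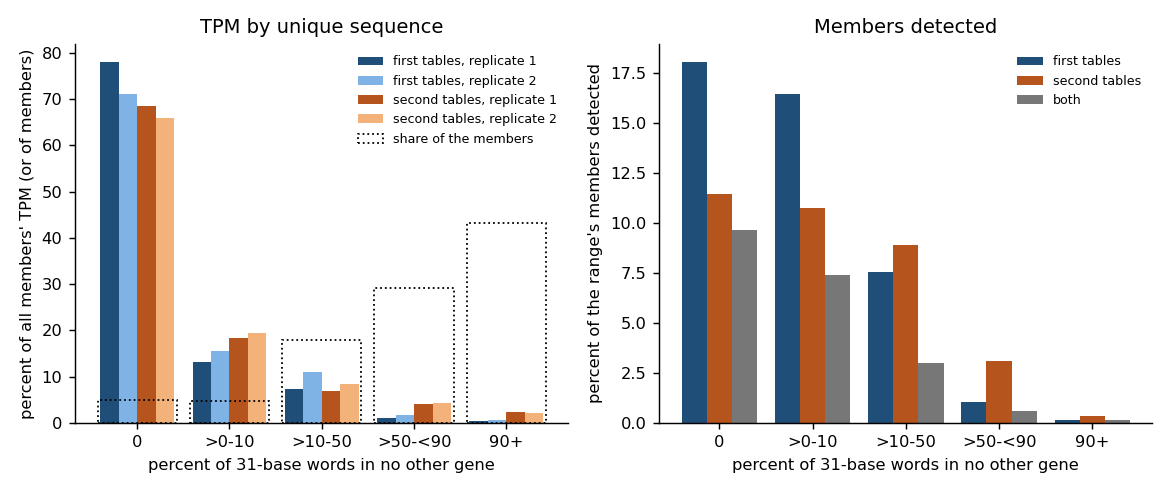
Left, percent of all members' TPM in 5 ranges of unique 31-base words (bars, 1 per library and quantification), with the percent of members in each range as dotted outlines. Right, percent of the members of each range that reached 1 TPM in each library. Members with no unique word held between 65.8% and 78.0% of the TPM, and those with 90% or more held at most 2.40%.

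Ribosomal protein copies were the main group. Of 84 coding genes for cytosolic ribosomal proteins, 81 were the closest gene of at least 1 member, and 2170 of the 10244 members were closest to one of them. These members held 52.3% and 45.8% of the members' TPM in the first quantification and 48.9% and 53.5% in the second. Of the 2170, 103 were detected by the first quantification, 155 by the second and 53 by both, while 866 were at 0 in all 4 tables. Over all 10244 members these counts were 345, 380, 161 and 5400. The detected shares were thus larger among ribosomal protein copies than over all members, and the share at 0 was smaller.

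Rps23-ps1 (ENSMUSG00000100755.1, chr3:37714740-37715164, plus strand, 425 bases), an exact copy of Rps23 sequence, had 1123 and 797 TPM in the first quantification (replicates 1 and 2) and 1258 and 1408 in the second. Its parent, a protein near the decoding centre of the small subunit, had 883 and 1046 TPM in the first quantification and 375 and 395 TPM in the second. The copy exceeded the parent's TPM in 3 of the 4 tables. In expected counts of the first quantification it was below Rps23, at 11850 and 4907 against 21455 and 13152. The copy overlaps an exon of Gm5148 on the opposite strand, and no source used here says whether counting used strand. Gm7536, an exact copy within Rpl27a, had 1006 and 939.5 TPM in the first quantification and 1049.5 and 1262 TPM in the second. It was above Rpl27a, at 495 and 600.1 TPM in the first quantification and 289 and 311 TPM in the second, in all 4 tables. In expected counts of the first quantification it was below, at 11367 and 6150 against 19643 and 12339 for Rpl27a.

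For 3 ribosomal copies of 171 to 213 bases, at least 1 library was listed at 0 by the second quantification. Gm14303, whose closest gene is the small subunit gene Rps29, had 2122 and 1269 TPM in the first quantification and 0 and 731 TPM in the second. Its 0 stood in replicate 1 only, and in replicate 2 the quantifications were within 2-fold. Gm10443, an exact copy of 210 bases from Rps28, had 648 and 314 TPM in the first quantification and 0 and 91.4 TPM in the second, again with 0 in replicate 1 alone. Rpl38-ps2 had 690.0 and 627 TPM in the first quantification and 0 and 0 TPM in the second. Both libraries of the second quantification listed this copy at 0, where Rpl38 itself stood at 3237 and 3268 TPM.

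Rpl37rt, annotated as transcribed and with 7 unique words around its 1 difference, had 455 and 207 TPM in the first quantification and 789 and 1236 TPM in the second. It was higher in the second quantification in both libraries, and replicate 2 was the lower library in the first and the higher in the second. Rpl28-ps1 had 221 and 156 TPM in the first quantification and 560.2 and 650.2 TPM in the second, log2 ratios of second over first of 1.34 and 2.06 (TPM + 0.1) in replicates 1 and 2. Rps16-ps2 had 115 and 75.2 TPM in the first quantification and 338 and 409 TPM in the second. Gm10163, a copy with 2 differences from Rpl21, had 16.3 and 18.1 TPM in the first quantification and 201 and 459 TPM in the second. All 3 were higher in both libraries of the second quantification than in either library of the first.

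Other high members were copies of genes outside the ribosome. Gm10123 (ENSMUSG00000062933.7, chr9:96895658-96896147, plus strand, 490 bases) lies without a difference in the transcript of Ppia, which encodes cyclophilin A, a peptidyl-prolyl isomerase. It had the highest mean of the 4 values of any member, with 2053 and 1082 TPM in the first quantification and 2323 and 1809.5 TPM in the second, although Gm14303 was higher in both libraries of the first. Ppia had 6504 and 6263 TPM in the first quantification and 4677 and 5030.2 TPM in the second, so that of the pair's sum the copy held 24.0% and 14.7% by the first quantification and 33.2% and 26.5% by the second. The 78 members closest to Ppia together had 2079 and 1124 TPM in the first quantification and 2389 and 1915 TPM in the second, most of it from Gm10123.

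Copies of mitochondrial genes included Ndufb4c, an exact copy of Ndufb4 (a subunit of respiratory complex I) in an intron of Mroh5. It had 875 and 942 TPM in the first quantification and 542 and 624 TPM in the second, above Ndufb4 at 232 and 242 TPM in the first quantification and 206 and 229 TPM in the second. The copy was the higher of the pair in all 4 tables, and also in expected counts of the first quantification (8020 and 5131 against 5749 and 2603). Gm12338, from Cox7c of complex IV, is 192 bases long and had 442 and 189 TPM in the first quantification and 74.5 and 574 TPM in the second. The quantifications placed this copy in opposite orders between the libraries. Gm10221, from the ATP synthase subunit gene Atp5l, had 156 and 193 TPM in the first quantification and 0 and 0 TPM in the second. Together 244 members were closest to respiratory chain and ATP synthase genes, and 20 of them were detected by the first quantification and 13 by the second. By each quantification this was a larger share than over all members (3.37% and 3.71%).

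Gm12481, an exact copy of Serf2 sequence, had 435 and 426 TPM in the first quantification and 253 and 303 TPM in the second. Oaz1-ps, from the antizyme gene that limits polyamine synthesis, had 31 unique words and 195 and 199.9 TPM in the first quantification and 178 and 184 TPM in the second. Among the named members above 100 TPM in all 4 tables, its values lay closest together. Tpt1-ps3, from the gene for the translationally controlled tumour protein, had 168 and 64.7 TPM in the first quantification and 297 and 439.6 TPM in the second. Its replicate 2 was the lower library in the first quantification and the higher one in the second.

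**Figure D2:**
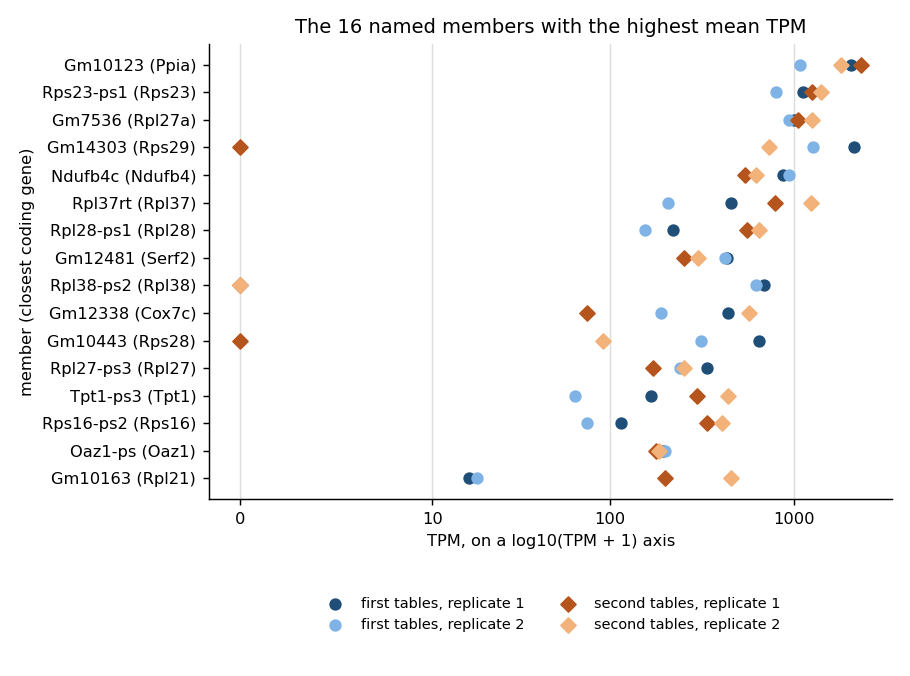
TPM of the 16 named members with the highest mean (log10(TPM + 1) axis), with the closest coding gene in brackets; circles are the first quantification and diamonds the second, dark for replicate 1 and light for replicate 2. Gm14303, Gm10443 and Rpl38-ps2 have at least 1 diamond at 0, and the 4 points of Oaz1-ps nearly coincide.

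The share of copies detected differed between genes with many copies. Over all members it was 3.37% by the first quantification and 3.71% by the second. Gapdh, the glycolytic glyceraldehyde-3-phosphate dehydrogenase, was the closest gene of 226 members, the most of any gene, with a further 139 closest to the Gapdh-like coding gene Gm10358. Of the 226, 10 were detected by the first quantification and 27 by the second, a larger share than over all members by each. The summed TPM of the 226 was 109.7, 80.3, 165 and 411 (first quantification replicates 1 and 2, then second). Gapdh itself was between 2354 and 3201 TPM. Rpl7a had 174 members with 1 detected by each quantification, a smaller share than over all members. Copies of chromatin and HMG protein genes numbered 360, of which 8 and 6 were detected, and the 10 ferritin copies had 1 detected by both. The 86 cyclophilin copies had 4 and 11 detected, the 83 heat shock and chaperone copies 1 and 6, and the 162 ubiquitin and proteasome copies 15 and 10. Cyclophilin copies and ubiquitin and proteasome copies were above the share over all members by both quantifications. Chromatin and HMG copies were below it by both, and heat shock and chaperone copies below it by the first only.

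Families whose symbol names the parent allowed a direct comparison of copies with their parent. Of 261 such families, 39 summed to at least 1 TPM in all 4 tables and 62 were at 0 in all. In 8 families the copies reached at least 10% of the parent's TPM in all 4 tables. By TPM the copies exceeded the parent in at least 1 table in 6 families. In 5 of these, Rps23, Rpl28, Llph, Mrpl23 and Bambi, the parent was above 0 in all 4 tables. In the sixth, Mageb16, copies at 0.0300 TPM or less stood beside a parent listed at 0 in replicate 1 of both quantifications. Each high family rested on 1 member, counting only members whose symbol names the parent. Gm11518, the same sequence as Rpl27-ps3 and with equal TPM, was therefore left out of the Rpl27 family. The highest member held from 94.4% (Rpl31-ps8, of 24 Rpl31 members) to 100% of the TPM of the 10 highest families.

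As a share of copy plus parent, the Rps23 family held 56.0% and 43.2% by the first quantification and 77.0% and 78.1% by the second. The Rpl28 family held 19.7% and 14.2% by the first quantification and 55.9% and 60.7% by the second, so that it passed its parent in the second quantification only. Llph-ps2, with 16 unique words and 1 difference from Llph, made its family 67.6% and 68.2% by the first quantification and 62.8% and 64.5% by the second. By TPM this family stood above its parent in every table. In expected counts of the first quantification it was below, at 1245 and 827 against 3060 and 1474 for Llph. The Rpl38 family held 14.8% and 14.8% by the first quantification and 0.00847% and 0.0405% by the second. The families of Tpt1, Rps16 and Rpl15 had larger shares in both libraries of the second quantification than in the first. For Rpl15, whose product is a large subunit protein, the shares were 23.0% and 5.93% by the first quantification and 42.2% and 34.2% by the second.

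**Figure D3:**
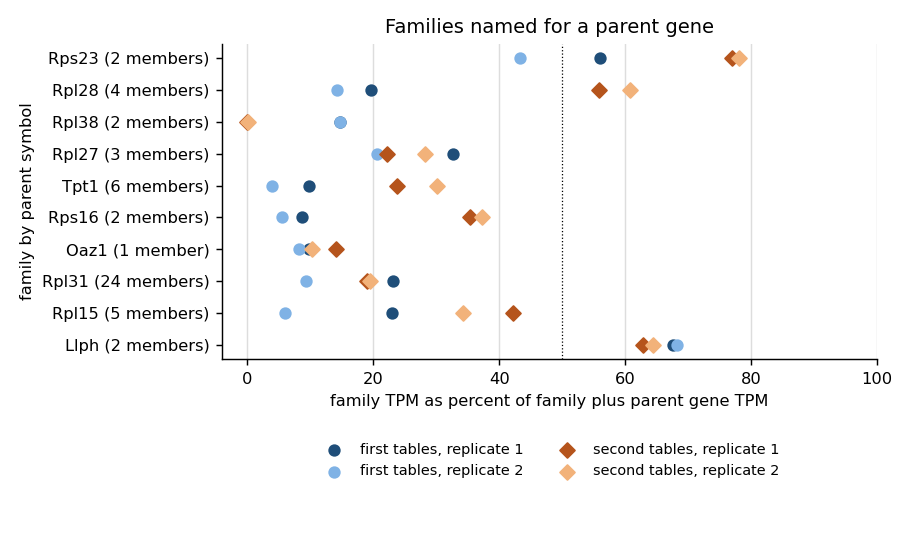
Summed TPM of the copies as a percent of copies plus parent gene, for the 10 symbol-named families with the highest summed TPM; circles are the first quantification and diamonds the second, and the dotted line marks equal TPM. Llph lies right of the line in all 4 tables and Rpl38 stands near 15% in the first and near 0 in the second of the quantifications.

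The quantifications were then set beside each other member by member. A member was called apart where the log2 ratio of TPM + 0.1, second over first, was 1 or more, with the same sign, in each library, and the mean of the 4 values was 1 TPM or more. Of 10244 members, 529 reached that mean, and 319 of these were called apart, where 9.34% of all annotated transcripts that reached it were called. Of the 46 unprocessed pseudogenes that reached it, 45.7% were called, beside 60.3% of the members. The second quantification was higher for 168 members (background 5.29%) and lower for 151 (background 4.05%). A member can reach the mean through 1 quantification alone: 58 of the 529 were at 0 in both libraries of the first, and 30 at 0 in both libraries of the second. With no minimum, 1115 of the 4844 members above 0 in any table were called, against 7.72% of transcripts. Only 112 of the 529 (21.2%) were within 2-fold in both libraries, against 78.6% of all transcripts at that mean. In 10 members the libraries disagreed in direction by at least 2-fold each. Among the 319, copies closest to ribosomal protein genes numbered 81 of the 168 that were higher and 49 of the 151 that were lower, beside 193 of all 529.

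Among members that the second quantification put lower, the 6 with the largest ratios were Rpl38-ps2, Mpc1-ps, Gm10221, Gm12918, Rps6-ps4 and Rps13-ps2, of which 5 were exact copies. Mpc1-ps, 1 difference from its parent, had 181 and 222 TPM in the first quantification and 0 and 0.675 TPM in the second. Mpc1 had 523 and 697 TPM in the first quantification and 407 and 559 TPM in the second. Gm12918, from the large subunit gene Rpl13, had 131 and 93.2 TPM in the first quantification and 0 and 0 TPM in the second. Rps6-ps4, from the small subunit gene Rps6, had 47.6 and 41.2 TPM in the first quantification and 0 and 0 TPM in the second, and Rps13-ps2, from Rps13, had 46.1 and 26.4 TPM in the first quantification and 0 and 0 TPM in the second. Their parents were all above 400 TPM in every table.

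The 6 with the largest ratios the other way all held unique words. Gm19220 had 0 and 0 TPM in the first quantification and 159 and 188 TPM in the second, from 7903 and 5460.5 estimated counts. It has 768 unique words of its 803 bases (99.4% of its words), and its best coding match, Naa10, an N-terminal acetyltransferase, was distant at 75.3% identity. Vamp7-ps, named for a SNARE protein of membrane fusion, had only unique words, no coding match, and 0 and 0 TPM in the first quantification and 25.9 and 27.7 TPM in the second. The other 4 were recognisable copies of coding genes. Gm8618, the diverged Rps23 copy shown above (97.5% identity over its length), had 0 and 0 TPM in the first quantification and 19.8 and 26.5 TPM in the second. Gm7079, from Rps29, had 0 and 0 TPM in the first quantification and 10.5 and 17.8 TPM in the second. Gm6043, a Ppia copy with 48.1% unique words, had 0.0800 and 0.130 TPM in the first quantification and 26.4 and 42.5 TPM in the second. Gm28900, a 156-base copy with 1 unique word and Rpl21 as closest gene, had 0 and 0 TPM in the first quantification and 35.2 and 176 TPM in the second. The first quantification listed 5 of these 6 at 0 in both libraries, all but Gm6043.

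**Figure D4:**
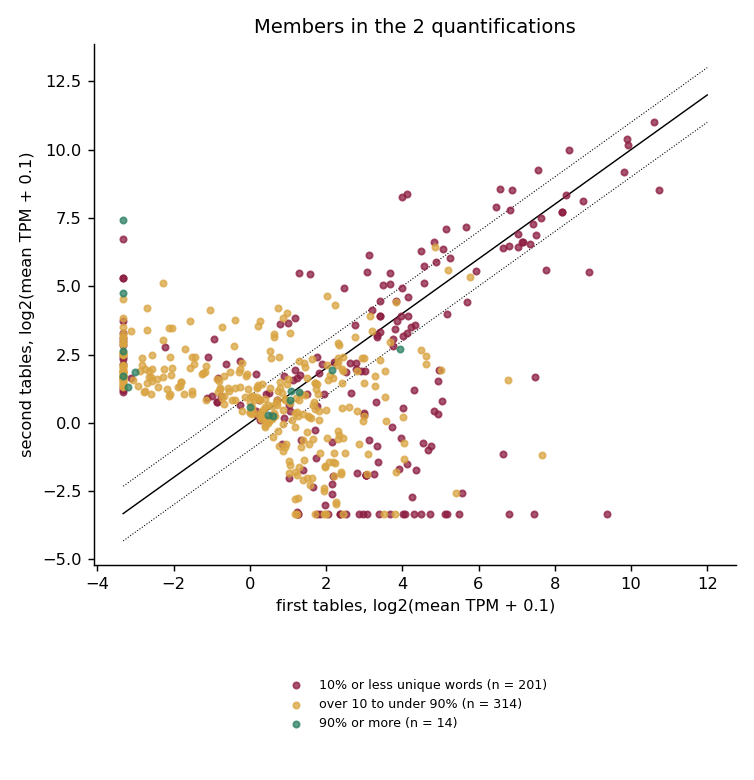
Mean TPM over both libraries in the second against the first quantification, log2(TPM + 0.1), for the 529 members with a mean of at least 1 TPM; the solid line marks equality and the dotted lines 2-fold, and the empty lower left corner comes from that minimum. Colours give unique words: 201 members with 10% or less, 314 between and 14 with 90% or more; the rows of points along both edges are members at 0 in one quantification.

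Few of the members with much unique sequence were detected. Of the 4435 with at least 90% unique words, 7 were detected by the first quantification, 15 by the second and 6 by both. These 6 were 2810025M15Rik, AA414768, Bambi-ps1, AC151284.2, Aprt-ps and Gm17922, and 5 of them lay outside other genes. Gm17922, an Npm1 (nucleophosmin) copy in an intron of Pcdh9 on the same strand, had 1.48 and 1.37 TPM in the first quantification and 1.03 and 1.14 TPM in the second. AA414768 on chromosome X had 2.80 and 5.97 TPM in the first quantification and 2.40 and 5.03 TPM in the second, with replicate 2 the higher in both quantifications. Aprt-ps had 1.75 and 2.18 TPM in the first quantification and 1.41 and 1.97 TPM in the second. Bambi-ps1, named for a receptor-like inhibitor of TGF-beta signalling, had 1.22 and 3.45 TPM in the first quantification and 1.61 and 2.51 TPM in the second. AC151284.2 had 2.86 and 1.16 TPM in the first quantification and 2.91 and 1.32 TPM in the second, with replicate 1 the higher in both. 2810025M15Rik, distantly like the ribosomal protein gene Rpl37a (79.8% identity), had 14.6 and 15.7 TPM in the first quantification and 1.93 and 11.0 TPM in the second, where replicate 1 of the second quantification stood apart. In the other 5 the quantifications gave values within 2-fold of each other in each library. Gm2961, detected by the second alone, had 0 and 0 TPM in the first quantification and 8.17 and 4.08 TPM in the second.

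The highest members annotated as transcribed were close copies too. After Rpl37rt, the highest members with this term included Gm1821, Gm10177 and Gm15421. Gm1821, from the polyubiquitin gene Ubb, had 106 and 256 TPM in the first quantification and 51.5 and 183 TPM in the second. Gm10177, an exact copy of Sec61g (a subunit of the ER translocation channel) with 207 bases, had 209 and 148 TPM in the first quantification and 0 and 6.14 TPM in the second. Sec61g had 22.2 and 21.6 TPM in the first quantification and 58.9 and 63.0 TPM in the second. By TPM the copy exceeded it in the first quantification and stood below it in the second. In expected counts of the first quantification Gm10177 was below Sec61g, at 513 and 263 against 839 and 469. Gm15421, with 12.7% unique words and Rpl22l1 as closest gene, had 13.2 and 15.4 TPM in the first quantification and 12.8 and 29.6 TPM in the second. In all 4 the share of unique words was under 13%.

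Lastly the libraries were compared within the first quantification. Expected counts were scaled to CPM (counts relative to the library's total) with TMM factors, and a member was called where log2 of CPM + 0.5, replicate 2 over 1, was at least 1 in size and the exact 95% binomial interval of the count ratio left out equality, at a mean of at least 1 CPM. This compares 2 libraries of 1 group, not conditions, and the interval covers counting error only. Of 10244 members, 233 reached the mean and 26 were called, where the same rule called 20.6% of all transcripts. In replicate 2, 12 were higher (background 6.13%) and 14 lower (background 14.5%). Scaling by total counts gave 16 higher and 11 lower. On the estimated counts of the second quantification, 57 of 284 members were called, a share near the 19.0% of all transcripts. In the second quantification, 13 of the 26 differed by at least 2-fold the same way, 2 by at least 2-fold the other way, and 1 was listed at 0. No unique word was held by 13 of the 26, beside 79 of the 233, and at most 10% by 24 of the 26, beside 140 of the 233.

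Among members higher in replicate 2, Amd-ps3 had 2.87 expected counts in replicate 1 and 76.7 in replicate 2, a log2 ratio of 2.53 in the first quantification and 3.57 in the second. The interval of its count ratio with no addition was 3.89 to 7.80 (log2). Its closest gene Amd1, for the polyamine enzyme S-adenosylmethionine decarboxylase, differed the same way, with a log2 ratio of 1.40. Gm15459, a copy with 5 differences from the chaperone gene Hspa8 over 1941 bases, had 327 expected counts in replicate 1 and 1130.1 in replicate 2. Its log2 ratio was 2.51 in the first quantification, 1.12 in the second and 0.14 for Hspa8. Gm9830, from the cap methyltransferase cofactor gene Ramac, had log2 ratios of 1.95 and 1.31 in the first and second quantification. Gm6055, from the autophagy gene Map1lc3b, had 1.83 and 3.60. Gpx4-ps2 (log2 ratio 2.31), from a glutathione peroxidase gene, was listed at 0 by the second quantification. Gm8925, from Rps6, had 2.10 in the first and 0.14 in the second.

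Among members lower in replicate 2, Gm6206 had 309 expected counts in replicate 1 and 4.73 in replicate 2. Its log2 ratio was -3.32 in the first and -3.50 in the second quantification, and the closest gene Cop1, a ubiquitin ligase, also stood lower in replicate 2 at -2.10. Gm8116, from Carnmt1, had 142 expected counts in replicate 1 and 2.72 in replicate 2, log2 ratios of -2.48 and -2.00 (count ratio interval -7.05 to -3.18 in the first), and -1.13 for Carnmt1. Gm9762, from the ubiquitin conjugating enzyme gene Ube2d2a, had -2.25 and -3.19, beside -1.40. In these 3 the copy, its closest gene and both quantifications went one way. Rpl15-ps3 had -1.95 in the first, -0.29 in the second and 0.18 for Rpl15. Gm10359 and Gm12671, copies of Gapdh, are the same sequence. In the first quantification Gm10359 had 636 expected counts in replicate 1 and 115 in replicate 2 and Gm12671 had 159 expected counts in replicate 1 and 0 in replicate 2. In the second each had 0.00111 estimated counts in replicate 1 and 3326 in replicate 2, the opposite direction. Over all 26, the closest gene went the same way in 17 and by at least 2-fold in 5.

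**Figure D5:**
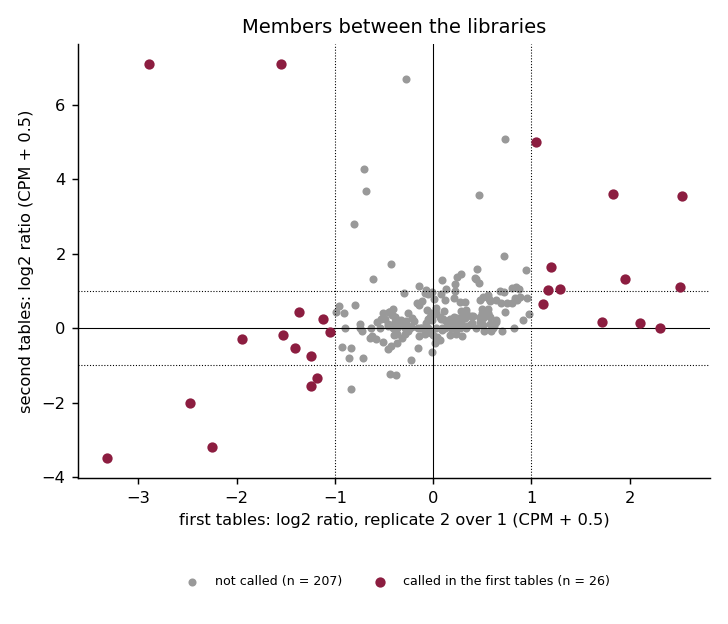
Log2 ratio of replicate 2 over replicate 1 (CPM + 0.5) in the second against the first quantification, for the 233 members with a mean of at least 1 CPM in the first; dotted lines mark 2-fold. The 26 called members are coloured, and the pair at the upper left, low in the first and high in the second, is Gm10359 and Gm12671.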

How the data were processed

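The annotation was GENCODE M21 on mm10, per the deposited notes. Per the file headers, the authors deposited expected counts and TPM (first quantification, with a posterior SD) and estimated counts and TPM (second), each per transcript. No source used here names the aligner, the quantifiers or a strand setting. The gene tables were not used. Spike-in and numeric rows (at most 2.39e-04% of counts) and 95 transcripts with no row in the second tables were left out. Members and lists were chosen with earlier results of these data known.

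Members were joined by transcript identifier and compared as TPM. For the libraries, expected counts were rounded and scaled with TMM factors (edgeR 4.0.16). DESeq2 1.42.0 size factors were an alternative. Unique 31-base words were counted over all annotated transcripts on both strands. Closest coding genes came from blastn 2.17.0 (word size 16, e-value up to 1e-10) over at least 50% of the member, and overlaps from bedtools 2.31.1. Calls and word counts were tested on simulated data. With 1 group of 2 libraries there is no test and no p-value. Depth was 26771051 to 76100930 fragments, and intervals cover counting error only.

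Members were named by rule: the 10 highest in each quantification, the 6 with the largest ratio each way among calls between quantifications and between libraries, the highest member of the 10 highest families, the 5 highest transcribed members and the 5 highest with at least 90% unique words. The members of this last kind that both quantifications detected, Mrpl23, Bambi and Mageb16 were named after their values were seen. One member that the rule names and one sequence are not reported here.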

Additional observations from a re-analysis of the deposited data

How the results depend on the processing

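With 2 libraries every count depends on both. Detection in 1 library in place of both gave 398 to 444 members by the first quantification, 428 to 603 by the second and 187 to 246 by both; the second and shared sets passed 1.5 times their size with replicate 2 alone (603 and 246). At a TPM of at least 5, 152, 109 and 64 members were detected, and at 0.5 the second quantification and the shared set gave 646 and 261. As a share of counts the members held 0.320% and 0.484% (first, second), and in single libraries 1.37% to 1.69% and 1.29% to 1.78% of TPM.

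Calls between quantifications numbered 1115 of 4844 with no minimum, 98 of 177 at a minimum of 5 TPM (background 6.18%) and 165 of 271 on CPM (background 7.55%). With 1 library they numbered 332 of 461 (replicate 1, background 15.9%) and 421 of 589 (replicate 2, background 14.2%). Calls between libraries numbered 40 of 2481 with no minimum (background 11.6%) and 10 of 76 at a minimum of 5 CPM (background 16.6%). On the second quantification they numbered 57 of 284 (37 higher, 20 lower, background 19.0%). With sums of counts, 25 families passed in place of 39. The other pseudocounts, scalings, 21-base words, same-strand words and family rule kept counts within 1.5 times. No paired analysis was possible because there is 1 group. Depth limits members near 1 CPM. With words of the same strand only, 411 members in place of 498 held no unique word, and no setting used here separates those 411.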

Other observations

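Some members are letter for letter the same as each other. There were 54 groups of such members, with 126 members in all and at most 5 in a group. Rpl27-ps3 and Gm11518, both copies within Rpl27, summed to 678 and 479 TPM in the first quantification and 342 and 504 TPM in the second. Gm10359 and Gm12671, 1002-base copies of Gapdh, received 636 and 159 expected counts in replicate 1 of the first quantification, and 3326 estimated counts each in replicate 2 of the second. Their sum was 3.45e-05 TPM in replicate 1 and 179 TPM in replicate 2 of the second quantification. Gm15801 and Gm8783, 522-base copies of the phosphatase gene Ptp4a1, summed to 24.3 and 17.9 TPM in the first quantification and 24.6 and 34.4 TPM in the second. A group of 5 within Rpl35a (Gm10243, Rpl35a-ps2, Rpl35a-ps3, Rpl35a-ps4 and Rpl35a-ps6) summed to 47.5 and 34.6 TPM in the first quantification and 0.759 and 0.903 TPM in the second. A group of 5 Rps12 copies was at 0 in 3 tables and at 0.0637 TPM in replicate 2 of the second quantification.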
